A study of Mus musculus with 18 samples.

Results

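The clustered histone genes are the protein-coding genes whose symbols begin with *Hist1h*, *Hist2h*, *Hist3h* or *Hist4h* in the deposited gene annotation. Of 54532 genes listed, 67 met this rule. They comprised 54 genes of the *Hist1* cluster on chromosome 13, 10 of the *Hist2* cluster on chromosome 3, 2 of *Hist3* on chromosome 11 and the single *Hist4* gene on chromosome 6. By product, 6 encode H1, 18 encode H2A, 18 encode H2B, 12 encode H3 and 13 encode H4.

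The RNA came from C3H10T1/2 (10T1/2), mouse fibroblasts that can turn into several mesenchymal cell types, with 3 libraries for each of 6 groups (18 in all). The unedited line (WT) and 2 clones edited to lack FOXS1 (KO) were sampled both uninduced and stimulated, that is, given TGF-β1 (1 nM, 12 h) and then DMII (48 h), an adipogenic mix of insulin, indomethacin, dexamethasone and a phosphodiesterase inhibitor. Cells were grown past confluence before treatment, and the study's methods place a night without serum before TGF-β1. Whether the uninduced cells were held in the same way is not given in the sources used here. Each clone descends from a single cell edited with CRISPR-Cas9 at the only exon of *Foxs1* and selected with puromycin, so whatever separates 1 clone from WT includes whatever separates 1 cell of the line from its population. *Foxs1* counts were higher in the KO libraries than in WT (25.7 ± 2.04 CPM in clone 1 and 22.6 ± 1.44 in clone 2 against 2.23 ± 0.886 in WT, uninduced, SD, n = 3), so the count gives no check of the label, and clone 1 and clone 2 mean the libraries labelled so throughout. The labels do not say that the 3 libraries of a group came from separate cultures, and p-values then measure only the spread between these libraries, which may be technical.

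Histones package DNA into nucleosomes, with H2A, H2B, H3 and H4 in the core particle and H1 on the linker. Most histone protein is made in S phase from clustered, intronless genes whose mRNAs end in a conserved stem-loop in place of a poly(A) tail. The stem-loop is bound by SLBP, and the cut after it is guided by the U7 snRNP. The same genes can also give polyadenylated transcripts that run past the stem-loop, which are known from differentiating and non-dividing cells. The libraries were made from poly(A)-enriched RNA, so the counts of this gene set describe polyadenylated transcripts plus whatever tailless RNA was carried through the selection, and these were not told apart. In bulk RNA, fewer cells of a kind and less RNA per cell cannot be told apart either.

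The stem-loop is shown first because it marks where the tailless mRNA ends, and the annotated transcripts can be sorted by whether they reach beyond it. The pattern searched was a 16-base run made of a 6-base stem, a 4-base loop and the matching stem, and 46 of the 67 genes held it between 21 and 58 bases after the stop codon. Elsewhere in the annotation, 114 of 21884 other protein-coding genes (0.521%) held the pattern anywhere in a transcript. The 8 forms found are given with the stem arms in capitals and the loop in lower case, 5′ to 3′ on the coding strand, as read from the transcript sequences of GRCm38.
26 genes for H1, H2A, H2B and H3, including *Hist1h1c*: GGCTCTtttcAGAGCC
7 genes, all for H4, including *Hist1h4h*, *Hist1h4m* and *Hist1h4n*: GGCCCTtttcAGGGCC
6 genes, including *Hist1h2bk*: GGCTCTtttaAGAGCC
*Hist1h4i* and *Hist2h4*: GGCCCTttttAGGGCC
*Hist1h4b* and *Hist1h4j*: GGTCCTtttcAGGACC
*Hist1h4a*: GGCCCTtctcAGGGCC
*Hist1h3g*: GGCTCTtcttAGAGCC
*Hist2h2ac*: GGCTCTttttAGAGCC
All 10 sequences with a GGCCCT arm belonged to H4 genes, whereas the GGCTCT arm was shared by genes for the other core histones and H1.

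Promoter windows are shown for the gene with most counts, *Hist1h1c*, for the H4 gene with most counts, *Hist1h4i*, and for *Hist1h2bg*, which lies 175 bases from *Hist1h2ae* on the opposite strand. RefSeq windows (GRCm38.p6) from 250 bases before to 50 bases after the start were matched for 62 of the 67 genes. Capitals mark matches to CCAAT, to TATAAA (the sequence of a TATA box), to the octamer ATTTGCAT and to AAACACA (that of the H1 box). Each was searched on both strands and anywhere in the window, so a match need not be a working box. The TATAAA of *Hist1h4i* lies far upstream of the start.
*Hist1h1c*, chr13:23738557-23738856, plus strand: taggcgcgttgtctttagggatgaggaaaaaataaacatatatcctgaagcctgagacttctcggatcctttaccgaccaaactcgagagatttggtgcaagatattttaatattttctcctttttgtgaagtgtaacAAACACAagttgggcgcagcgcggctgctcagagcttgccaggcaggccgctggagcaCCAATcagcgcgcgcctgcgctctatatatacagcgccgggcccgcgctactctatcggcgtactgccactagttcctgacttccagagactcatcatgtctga
*Hist1h4i*, chr13:22041313-22041612, minus strand: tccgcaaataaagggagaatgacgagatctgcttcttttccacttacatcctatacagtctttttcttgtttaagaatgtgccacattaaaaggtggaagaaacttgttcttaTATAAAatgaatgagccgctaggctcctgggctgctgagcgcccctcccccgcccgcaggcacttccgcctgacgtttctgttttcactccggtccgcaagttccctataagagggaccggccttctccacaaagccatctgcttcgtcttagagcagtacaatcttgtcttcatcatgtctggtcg
*Hist1h2bg*, chr13:23571150-23571449, plus strand: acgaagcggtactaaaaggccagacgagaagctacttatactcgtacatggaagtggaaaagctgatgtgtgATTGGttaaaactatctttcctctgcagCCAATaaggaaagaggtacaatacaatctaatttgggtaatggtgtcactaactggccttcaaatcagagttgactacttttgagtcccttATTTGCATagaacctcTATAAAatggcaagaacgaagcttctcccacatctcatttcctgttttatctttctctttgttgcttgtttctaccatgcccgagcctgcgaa
CCAAT was found in 53 of the 62 windows against 37.4% of 32851 promoters, and it was in every window of an H1, H2A, H2B or H3 gene but in 3 of 12 for H4. TATAAA was found in 35 of 62 against 13.6% of all promoters. The octamer ATTTGCAT was found in 7 of 18 H2A and 7 of 16 H2B windows and in no other member, against 1.74% of all promoters. Since 12 H2A and H2B pairs lie head to head 175 to 305 bases apart, their windows can cover the same DNA. A match to any of these sequences can then be counted for both genes of a pair. AAACACA, known from H1 promoters, was found in 5 of 6 H1 windows against 7.18%.

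The clustered histone genes took between 0.0247% and 0.171% of the counts of a library, or 4260 to 50350 counts of totals between 15576685 and 42005596. At least 1 count was found for 60 genes, and 41 passed the filter on low counts and were tested. The filter asks for about 0.496 CPM in at least 3 libraries. Only 22 of the 41 reached that level in 3 or more WT libraries, and 5 (*Hist1h2ab*, *Hist1h2ad*, *Hist1h2ai*, *Hist1h3b* and *Hist1h3f*) reached it only through stimulated clone 1, so a rise there was built into their being tested. The 41 were 5 genes for H1, 7 for H2A, 9 for H2B, 10 for H3 and 10 for H4. *Hist2h2aa1*, *Hist2h2aa2*, *Hist2h2bb*, *Hist2h3b*, *Hist2h3c1*, *Hist1h2aa* and *Hist1h2ba* had no count in any library. Replicate 1 of uninduced WT stood apart in that 36 members had no count there, against 8 to 26 in each of the other 17 libraries. Many of these genes are near-copies, and 28 of the 67 shared over 30% of their 150-base stretches with another gene, so counts of those genes are uncertain. All 8 fibroblast or mesenchymal markers had counts in every group, at a summed mean of 34493 to 77108 CPM, nearly all of it collagens and vimentin. *Thy1*, one of the 8, set the lines apart, at 59.6 and 49.0 CPM in uninduced and stimulated WT, 184 and 161 in clone 1, and 0.616 and 0.342 in clone 2. Markers of other cells summed to 0.697 to 6.51 CPM in the group means for 5 blood cell genes (*Ptprc* at 0 counts throughout), 0.104 to 6.54 for 4 endothelial, 0.00 to 3.16 for 4 epithelial and 0.167 to 2.95 for 4 muscle genes. Among these, *Lyz2* and *Des* were higher and *Tek* lower than WT in all 4 comparisons of a clone with WT, and *Cdh1* was higher in uninduced clone 2 and lower in stimulated clone 1. Their part in the histone results was not tested.

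The 6 groups were apart in the level of histone RNA, lowest in uninduced WT and highest in stimulated clone 1. The summed level of all members was 248, 225 and 223 CPM in uninduced WT and 504, 509.6 and 499.9 CPM in stimulated WT. In clone 1 it was 745, 806 and 773 CPM uninduced and 1807, 1857 and 1741 CPM stimulated. Clone 2 had 387, 396 and 375 CPM uninduced and 1204, 1235 and 1161 CPM stimulated. The groups did not overlap, and they ran from uninduced WT at 232 ± 13.8 CPM through uninduced clone 2, stimulated WT, uninduced clone 1 and stimulated clone 2 to stimulated clone 1 at 1801 ± 58.2 CPM (SD, n = 3). No test was run on these sums. They are mostly 1 gene, since *Hist1h1c*, for a linker histone, held 63.5% to 82.8% of the members' counts. Without *Hist1h1c* the means were 81.3 ± 0.689 and 115 ± 2.28 CPM in uninduced and stimulated WT. They were 218 ± 6.03 and 521 ± 12.3 CPM in clone 1, and 110.5 ± 3.75 and 210.2 ± 9.02 CPM in clone 2. On these sums stimulated clone 1 stood 4.53-fold above stimulated WT, against 3.57-fold with *Hist1h1c* included. Uninduced clone 2 and stimulated WT, which lay apart with *Hist1h1c* included, overlapped without it.

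**Figure D1:**
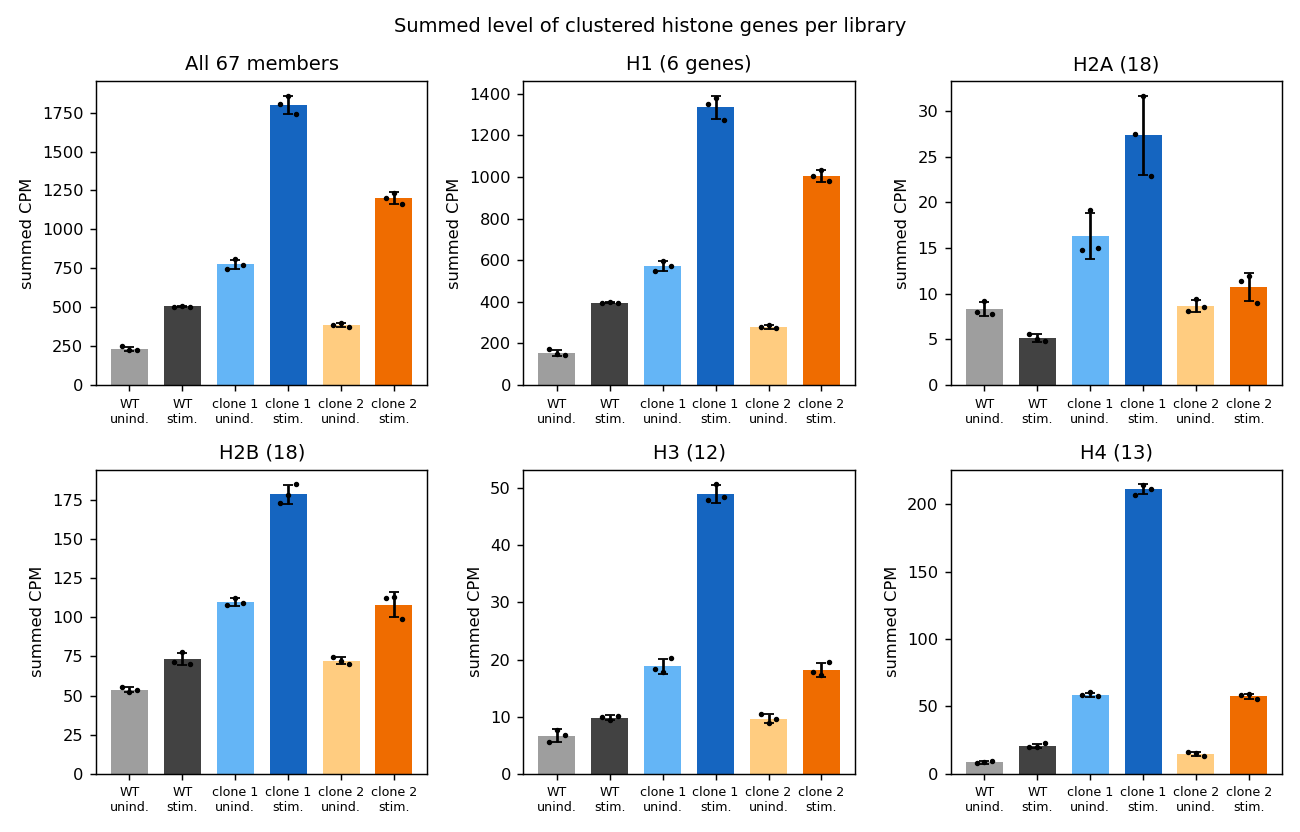
Summed CPM (linear axes from 0) of all 67 clustered histone genes and of those for H1, H2A, H2B, H3 and H4, in the 6 groups; bars are means of 3 libraries, error bars the SD and points single libraries. In every panel stimulated clone 1 is highest, and for H4 its mean of 211 CPM compares with 20.8 CPM in stimulated WT.

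The histones differed in how far they rose. H4 genes summed to 8.63 ± 1.05 CPM in uninduced WT and 20.8 ± 1.43 in stimulated WT, against 58.7 ± 1.53 and 211 ± 3.82 in clone 1 and 14.8 ± 1.34 and 57.6 ± 1.85 in clone 2. Stimulated clone 1 was thus 10.1-fold above stimulated WT for H4. The same ratio was 5.32 for H2A, 4.98 for H3, 3.38 for H1 and 2.44 for H2B. Without the most abundant gene of each, it was 9.17 for H1 (without *Hist1h1c*) and 10.9 for H4 (without *Hist1h4i*). H2B had the highest sum of the core histones in WT, at 53.8 ± 1.77 CPM uninduced, while H4 was higher than H2B in stimulated clone 1 (211 ± 3.82 against 179 ± 6.07 CPM). H2A was the only product whose sum was lower in stimulated than in uninduced WT (5.14 ± 0.436 against 8.32 ± 0.743 CPM). In the clones it was higher after stimulation, at 27.3 ± 4.35 against 16.3 ± 2.48 CPM in clone 1 and 10.8 ± 1.53 against 8.68 ± 0.662 in clone 2.

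By cluster, *Hist1* followed the whole, at a ratio of 3.58 for clone 1 over WT in stimulated cells. The *Hist2* genes, mostly *Hist2h3c2* and *Hist2h2be*, summed to 4.28 and 4.46 CPM in uninduced and stimulated WT, 13.5 and 16 CPM in clone 1 and 7.99 and 10.6 CPM in clone 2. After stimulation the sum stood at 1.04-fold in WT, 1.18-fold in clone 1 and 1.32-fold in clone 2. The pair moved apart, since *Hist2h3c2* went from 2.57 to 3.49 CPM in WT, 10.6 to 13.9 in clone 1 and 6.34 to 9.19 in clone 2, while *Hist2h2be* went from 1.60 to 0.772, 2.38 to 1.73 and 1.45 to 0.934 CPM. The *Hist3* pair was lower after stimulation in every line, by a ratio of 0.517 in WT, 0.513 in clone 1 and 0.554 in clone 2, and *Hist3h2a*, which gives nearly all of it, was called in no comparison (-0.93, -1.0 and -0.85 on the log2 scale for stimulation). *Hist4h4*, the only *Hist4* gene, was at 0.0975 to 0.545 CPM in the group means, on 0 to 20 counts per library.

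Among the 26 genes that were not tested, 19 had between 1 and 96 counts over all 18 libraries. *Hist2h4* had 8 and 9 counts over the 3 libraries of uninduced and stimulated WT, 24 and 22 in clone 1 and 14 and 19 in clone 2. *Hist2h2ac* had 18 counts in all, *Hist3h2ba* 17 and *Hist2h2ab* 1. *Hist1h2br* had 0 counts over stimulated WT, 30 over stimulated clone 1 and 20 over stimulated clone 2, which against a floor of 3 counts over the WT group was at least 9.69-fold and 8.81-fold higher. *Hist1h4b* had 18, 0 and 0 counts in uninduced WT and 0 in the 3 uninduced libraries of clone 2, so its difference rests on 1 WT library. These bounds cover counting error only.

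The question of the clone comparisons is whether loss of FOXS1 alters expression before and after stimulation. Without stimulation, clone 1 had 22 of the 41 tested histone genes higher than WT and 0 lower, where 6.32% of the 14317 genes tested were higher and 8.73% lower. Calls rest on edgeR's quasi-likelihood test with a Benjamini-Hochberg adjusted p below 0.05 over all genes tested and a change of more than 1 on the log2 scale. The median log2 fold change of the 41 was 1.42, against -0.01 for all genes. No member had an unadjusted p below 0.05 in the lower direction, and DESeq2 called 24 higher and 0 lower. In clone 2, 7 genes were higher and 2 lower, where 5.54% and 9.56% of all genes were, with a median of 0.26 against -0.02. Both clones are set against the same WT libraries, so these counts are not independent of each other. The count in clone 2 rests on the WT libraries as well, since 15 genes (11 higher, 4 lower) were called without replicate 3 of uninduced WT.

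Under stimulation, clone 1 had 34 of 41 genes higher and 0 lower than WT, where 9.42% of all genes were higher and 9.6% lower, and the median was 2.28 against -0.02. Every clone 1 library exceeded every WT library for 36 of the 41, where 31.7% of all genes did so. A high level in stimulated clone 1 was built into the testing of 5 of the 41. In clone 2, 13 were higher and 0 lower, where 7.95% and 8.94% of all genes were, with a median of 0.67 against -0.01. In both comparisons no member had an unadjusted p below 0.05 in the lower direction, and DESeq2 called 0 lower. Among the 22 genes that reached the filter level in WT libraries, clone 1 had 20 higher and clone 2 had 8 higher in stimulated cells, and 15 and 3 in uninduced cells. In the same clone 1 libraries the 5 adipocyte markers summed to 36.0 ± 6.38 CPM against 0.691 ± 0.475 in stimulated WT, with all 4 tested members higher, *Lep* at 0 counts and *Adipoq* at 0.207 CPM. In clone 2 they summed to 3.96 ± 1.09 CPM, with 2 of 4 higher. Their part in the histone result was not tested.

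**Figure D2:**
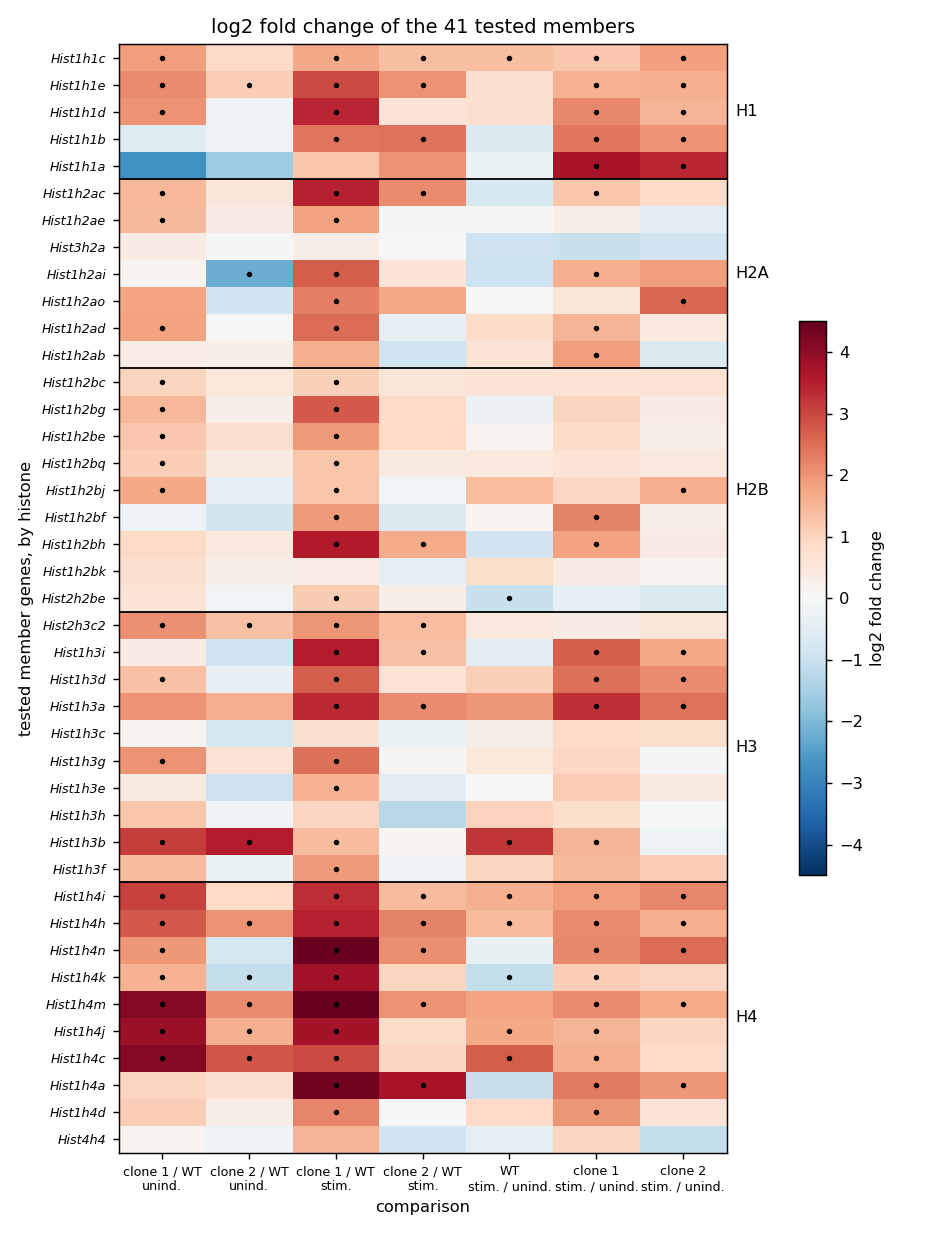
log2 fold change (colour) of the 41 tested clustered histone genes, ordered by histone, in the clone comparisons and the responses to stimulation; dots mark calls by edgeR. Of the 41 genes, 34 are called higher in stimulated clone 1 and 13 in stimulated clone 2, and 5 of the 41 were tested only through stimulated clone 1.

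The H1 genes were led by *Hist1h1c* (ENSMUSG00000036181, chr13:23738808-23740367). It was at 166, 145 and 142 CPM in uninduced WT, 533, 583 and 555 in clone 1 and 273, 285 and 268 in clone 2. After stimulation it was at 390.2, 392 and 386 CPM in WT, 1301, 1328 and 1213 in clone 1 and 987, 1021 and 961 in clone 2. No group overlapped another. The log2 fold change over WT in uninduced cells was 1.88 (SE 0.0528, adjusted p = 9.82e-23, edgeR) in clone 1 and 0.87 in clone 2, below the fold threshold. In stimulated cells it was 1.72 (SE 0.0515, adjusted p = 2.92e-22) and 1.35 (SE 0.0511, adjusted p = 1.16e-19).

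*Hist1h1e* and *Hist1h1d*, for 2 further somatic linker histones, were below 4 CPM in every WT library. *Hist1h1e* was at 0.641, 1.26 and 1.52 CPM in uninduced WT and 2.20, 2.07 and 1.53 in stimulated WT, against 14.6, 15.6 and 15 in stimulated clone 1 and 8.52, 6.28 and 8.96 in stimulated clone 2. It was higher in each clone, by 2.96 (SE 0.216, adjusted p = 6.06e-13) and 2.03 (SE 0.223, adjusted p = 4.65e-09) on the log2 scale in edgeR's test. *Hist1h1d* set the clones apart. It stood at 3.96, 3.20 and 3.29 CPM in stimulated WT, 34.9, 35.9 and 41.5 in stimulated clone 1 and 6.05, 4.77 and 5.23 in stimulated clone 2. The log2 difference between clone 1 and clone 2 was 2.80 in stimulated cells (SE 0.192, adjusted p = 2.51e-12, edgeR) and 2.18 in uninduced cells (SE 0.221, adjusted p = 6.46e-09).

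Among H2A genes, 5 of 7 were higher in stimulated clone 1 and 1 of 7 in stimulated clone 2, where 9.42% and 7.95% of all genes were. Beside such a share, 1 call among 7 genes in clone 2 says little about H2A. Of these 7, *Hist1h2ab*, *Hist1h2ad* and *Hist1h2ai* were tested only through their level in stimulated clone 1, so the first count was partly built in. *Hist1h2ac*, the H2A gene with the highest level per kb, was at 1.08, 1.77 and 1.85 CPM in stimulated WT, 16.3, 20.1 and 15.6 in clone 1 and 7.12, 7.58 and 6.01 in clone 2. The log2 fold changes were 3.46 (SE 0.214, adjusted p = 1.38e-14) and 2.13 (SE 0.226, adjusted p = 2.46e-09) in edgeR's test. *Hist1h2ae* was higher in clone 1 (1.80, adjusted p = 0.00399, edgeR) with -0.06 in clone 2 (adjusted p = 0.946). *Hist3h2a*, on chromosome 11, gave 0.28 and 0.02 in stimulated cells, neither called, and its libraries overlapped in every group (1.09 to 2.84 CPM in stimulated clone 1, 1.13 to 2.79 in stimulated WT).

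Of 9 H2B genes, 8 were higher in stimulated clone 1 and 1 in stimulated clone 2, where 9.42% and 7.95% of all genes were. The medians were 1.26 and 0.39. Beside such a share, 1 call among 9 genes in clone 2 says little about H2B. *Hist1h2bc*, whose annotated transcript has no stem-loop, was the most abundant, at 57.5, 62.5 and 58.7 CPM in stimulated WT, 121, 122 and 128 in clone 1 and 87.4, 90.5 and 80.5 in clone 2. Its libraries did not overlap between the lines, while the log2 fold changes were near the threshold, at 1.06 (SE 0.0594, adjusted p = 1.4e-15, edgeR) and 0.53. In uninduced cells clone 1 gave 1.02, and leaving out 1 library (replicate 2 of WT, or replicate 1 or 2 of clone 1) brought it to between 0.98 and 1.00, under the threshold. *Hist1h2bg* was at 1.86, 2.89 and 2.39 CPM in stimulated WT and 14.7, 16.1 and 17.7 in clone 1, a log2 fold change of 2.75 (SE 0.201, adjusted p = 6.28e-13, edgeR). *Hist1h2be* rose by 1.92 in the same comparison (adjusted p = 1.14e-08). In clone 2 these 2 genes stood at 0.89 and 0.88, under the threshold. *Hist2h2be* was higher in stimulated clone 1 by 1.16 (adjusted p = 0.0119), a call lost without replicate 2 of that group (0.97).

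Of 10 H3 genes, 8 were higher in stimulated clone 1 and 3 in stimulated clone 2, where 9.42% and 7.95% of all genes were. Among the 10, *Hist1h3b* and *Hist1h3f* were tested only through their level in stimulated clone 1. *Hist2h3c2* led, at 2.85, 2.25 and 2.59 CPM in uninduced WT, 10.2, 10.1 and 11.7 in clone 1 and 6.36, 6.51 and 6.15 in clone 2. It was higher in both clones in both states, with log2 fold changes of 2.05 and 1.31 in uninduced cells and 1.99 (adjusted p = 2.95e-12) and 1.39 (adjusted p = 1.33e-08) in stimulated cells by edgeR. It shared 59.4% of its 150-base stretches with *Hist2h3b*, *Hist2h3c1* and 2 overlapping genes, so its counts may hold theirs. *Hist1h3i* was at 0.440, 0.734 and 0.857 CPM in stimulated WT, 8.31, 7.19 and 8.11 in clone 1 and 1.68, 1.31 and 2.1 in clone 2 (log2 fold changes 3.52, adjusted p = 1.37e-09, and 1.31, adjusted p = 0.00602). *Hist1h3d* was higher in stimulated clone 1 by 2.71 (adjusted p = 9.01e-06), with 0.67 in clone 2 (adjusted p = 0.19).

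Of 10 H4 genes, 9 were higher in stimulated clone 1 and 5 in stimulated clone 2, where 9.42% and 7.95% of all genes were. The medians were 3.59 and 1.21. Of these, *Hist1h4a*, *Hist1h4c*, *Hist1h4j*, *Hist1h4m*, *Hist1h4n* and *Hist4h4* did not reach the filter level in all 3 libraries of either WT group. The counts and medians may therefore rest partly on genes that passed the filter through the clones. Counts by histone were not taken over the 22 genes that reached it in WT libraries. *Hist1h4i* (chr13:22040636-22041362) was at 4.72, 5.56 and 5.60 CPM in uninduced WT, 45.0, 45.2 and 43.6 in clone 1 and 11, 10.5 and 7.71 in clone 2. After stimulation it was at 15.6, 15.8 and 17.6 CPM in WT, 159, 165 and 163 in clone 1 and 44.4, 46.3 and 42.4 in clone 2. Uninduced clone 1 and stimulated clone 2 shared a level, and every other group was apart. In clone 1 the log2 fold change over WT was 3.06 uninduced (SE 0.0997, adjusted p = 4.41e-21, edgeR) and 3.31 stimulated (SE 0.0845, adjusted p = 5.21e-24). In clone 2 it was 0.90, under the threshold, and then 1.44 (SE 0.0860, adjusted p = 6.69e-15).

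Other H4 genes were at or near 0 in WT, so their folds rest on few WT counts. *Hist1h4m* had 0, 0 and 4 counts in uninduced WT and 18, 23 and 28 in clone 1, and in stimulated cells 6, 6 and 3 against 96, 133 and 129. Its log2 fold change of 4.5 in stimulated clone 1 (SE 0.492, adjusted p = 3.99e-09, edgeR) was the largest of the 34, and that of 4.14 in uninduced clone 1 became 7.68 without replicate 3 of uninduced WT. *Hist1h4n* (4.45, adjusted p = 4.86e-11) and *Hist1h4a* (4.36, adjusted p = 0.000113) followed in stimulated clone 1. *Hist1h4m* and *Hist1h4n* shared 85.8% and 77.2% of their 150-base stretches with each other, so their values may not be separate. *Hist1h4c* and *Hist1h4j*, with 4 and 7 counts over the 3 uninduced WT libraries, gave 4.12 and 3.89 in uninduced clone 1, the latter 4.56 without replicate 2 of WT. *Hist1h4h* was at 0, 0.262 and 0.839 CPM in uninduced WT and 11.7, 12.6 and 13.4 in stimulated clone 1, and in stimulated cells was higher in clone 1 by 3.45 and in clone 2 by 2.22 (adjusted p = 1.24e-08 and 1.88e-05, edgeR).

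In stimulated clone 2 the largest differences from WT were those of *Hist1h4a* (3.71, adjusted p = 0.001), *Hist1h1b* (2.43, adjusted p = 0.00216) and *Hist1h4h*. In uninduced clone 2 they were those of *Hist1h3b* (3.53, adjusted p = 0.00179), which had 0, 0 and 2 counts in WT, *Hist1h4c* (2.80) and *Hist1h4m* (2.13). Without replicate 3 of WT those of *Hist1h3b* and *Hist1h4m* became 6.19 and 5.68, and without replicate 1 of clone 2 that of *Hist1h3b* became 2.89. The 2 genes lower in uninduced clone 2 were *Hist1h2ai* (-2.22, adjusted p = 0.0323) and *Hist1h4k* (-1.07, adjusted p = 0.0176). The value of *Hist1h2ai* rests on 13, 2 and 5 counts in WT against 5, 0 and 1. It was not called without replicate 1 of WT (-1.10) or replicate 2 (-1.78) or 3 (-2.19) of clone 2, and was -3.43 without replicate 1 of clone 2. The call of *Hist1h4k* was lost without replicate 2 of WT (-0.93) or replicate 1 of clone 2 (-0.89), and that of *Hist1h4m* without replicate 1 (1.70) or 2 (1.65) of WT or replicate 2 of clone 2 (2.01).

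The response to TGF-β1 + DMII asks what stimulation changed within each line. In WT, 6 of 41 genes rose and 2 fell, where 6.25% and 13.6% of all genes were, with a median log2 fold change of 0.46 against -0.04. In clone 1, 24 rose and 0 fell, where 5.95% and 10.7% of all genes were, with a median of 1.53, and in clone 2, 15 rose and 0 fell, where 6.46% and 11.2% were, with a median of 0.88. In the lower direction 1 member had an unadjusted p below 0.05 in each clone, and DESeq2 called 0. A high level in stimulated clone 1 was built into the testing of 5 of the 41. Among the 22 genes that reached the filter level in WT libraries, 3 rose and 2 fell in WT. Of the same 22, 12 rose in clone 1 and 8 in clone 2, and 0 fell. The 2 clones share no library in these comparisons, and 13 genes were called higher in both, which is 54.2% of those of clone 1 and 86.7% of those of clone 2. The overlap was not taken over all genes, so these percentages have no share to be read against.

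All 5 tested H1 genes rose on stimulation in both clones, and 1 of 5, *Hist1h1c*, rose in WT. Of all genes, 6.25% rose in WT, 5.95% in clone 1 and 6.46% in clone 2. The 5 include *Hist1h1a*, whose calls rest on few counts. For *Hist1h1c* the rise was 1.37 in WT (SE 0.0522, adjusted p = 1.13e-19, edgeR), 1.20 in clone 1 and 1.84 in clone 2. H4 genes rose in 4 of 10 cases in WT, 9 of 10 in clone 1 and 5 of 10 in clone 2, and *Hist1h4i* rose in all lines, by 1.62, 1.86 and 2.15. In clone 1 the largest rises were those of *Hist1h1a* (3.69), *Hist1h3a* (3.30) and *Hist1h3i* (2.69, adjusted p = 9.34e-08, edgeR). *Hist1h1a* had 1, 0 and 0 counts in uninduced clone 1 and 5, 8 and 7 after stimulation, and its call (adjusted p = 0.0398, edgeR) was lost when any of 5 of the 6 libraries was left out (3.23 to 3.77) and was 5.70 without replicate 1 of uninduced clone 1. In clone 2 they were *Hist1h1a* (3.38), *Hist1h2ao* (2.59) and *Hist1h4n* (2.51, adjusted p = 1.65e-05). The calls of *Hist1h1a* and *Hist1h2ao* in clone 2 were lost without replicate 2 (2.98) and replicate 1 (2.26) of uninduced clone 2, and that of *Hist1h1a* also without replicate 1 of stimulated clone 2 (2.95). Without replicate 1 of uninduced clone 2 the rise of *Hist1h1a* was 6.39.

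In WT the largest rises were at *Hist1h3b* (3.21, adjusted p = 0.00501), *Hist1h4c* (2.73, adjusted p = 0.00268) and *Hist1h4j* (1.71, adjusted p = 0.0237), each with 0 to 4 counts per uninduced library. That of *Hist1h3b* became 5.87 without replicate 3 of uninduced WT, and that of *Hist1h4c* 2.03 without replicate 3 of stimulated WT. The call of *Hist1h4j* was lost without replicate 1 (1.25) or 3 (1.73) of uninduced or replicate 2 (1.41) of stimulated WT, and was 2.38 without replicate 2 of uninduced WT. *Hist1h4k* (-1.07, adjusted p = 0.0172) and *Hist2h2be* (-1.01, adjusted p = 0.0293) fell in WT. *Hist2h2be* was at 2.74, 1.15 and 0.915 CPM before and 0.636, 0.734 and 0.947 after, and without replicate 1 of uninduced WT the difference was -0.40, not called; it was also lost without replicate 1 (-0.88) or 2 (-0.96) of stimulated WT. *Hist1h4k* was not called without replicate 2 of uninduced WT (-0.94) or replicate 3 of stimulated WT (-0.84).

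The difference in response between lines was tested as an interaction. Relative to WT, 8 of 41 genes responded more in clone 1 and 0 less, where 5.34% and 3.46% of all genes did, and DESeq2 called 10 and 0. In clone 2, 5 responded more and 1 less, where 4.89% and 2.96% did. Among the 22 genes that reached the filter level in WT libraries, 6 responded more in clone 1 and 4 in clone 2, and 0 less. The count in clone 2 was 12 without replicate 1 of uninduced WT, the library with most members at 0, and 10 without replicate 3. *Hist1h2ac* had the smallest adjusted p of the genes called in each clone. It was at 3.67, 2.31 and 1.98 CPM in uninduced and 1.08, 1.77 and 1.85 in stimulated WT, while clone 1 went from 6.66, 8.69 and 6.42 to 16.3, 20.1 and 15.6 CPM and clone 2 from 3.66, 4.07 and 3.48 to 7.12, 7.58 and 6.01. The difference in log2 response was 1.98 (SE 0.305, adjusted p = 5.79e-06) in clone 1 and 1.60 (SE 0.317, adjusted p = 0.00019) in clone 2 by edgeR. *Hist1h3i* gave 3.16 (adjusted p = 2.79e-05) and 2.22 (adjusted p = 0.00362), or 2.5 and 1.55 without replicate 1 of uninduced WT. For *Hist1h1c* the responses of clone 1 and WT differed by -0.17 (adjusted p = 0.0767) and those of clone 2 and WT by 0.48 (adjusted p = 4.47e-06), under the fold threshold.

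Clone 1 and clone 2, which carry edits of the same gene, differed from each other in this gene set. Clone 1 had 16 of 41 genes higher and 0 lower than clone 2 without stimulation, where 4.89% and 3.78% of all genes were, and 26 higher and 0 lower with it, where 5.5% and 4.48% were. No member had an unadjusted p below 0.05 in the lower direction, and DESeq2 called 0 lower in each. Every stimulated clone 1 library exceeded every stimulated clone 2 library for 36 genes, where 27.0% of all genes did so. A high level in stimulated clone 1 was built into the testing of 5 of the 41. Among the 22 genes that reached the filter level in WT libraries, clone 1 had 9 higher than clone 2 without stimulation and 14 with it, and 0 lower. For the H4 genes 9 of 10 were higher in stimulated clone 1, including *Hist1h4i* by 1.87 (SE 0.0780, adjusted p = 5.19e-18, edgeR) and *Hist1h4j* by 2.89 (adjusted p = 8.1e-07). The other largest differences there were at *Hist1h2ad* (2.91, adjusted p = 0.000178), which was tested only through its level in stimulated clone 1, and *Hist1h1d*, and in uninduced cells at *Hist1h4n* (2.69, adjusted p = 7.04e-06), *Hist1h4k* (2.65, adjusted p = 2.26e-07) and *Hist1h2ao* (2.62, adjusted p = 0.00873). The call of *Hist1h2ao* was lost without replicate 1 of uninduced clone 2 (2.29). *Hist4h4* was higher in stimulated clone 1 by 2.39 (adjusted p = 0.0448), on 10, 20 and 8 counts against 2, 0 and 3, and was not called when any of 5 of these 6 libraries was left out (1.88 to 3.09).

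The genes were also set out by the 3′ end of their annotated transcripts. In 23 genes the annotated transcript ended 3 to 74 bases after the stem-loop, and in another 23 it ran on for 108 to 4884 bases, a split made at 100 bases. A further 4 genes had a long 3′ UTR with no stem-loop, and 17 had an annotated 3′ UTR of 0 to 48 bases in which none was found. Genes whose transcripts run on held 87.8% of the members' summed mean CPM and those with a long 3′ UTR and no stem-loop 9.71%. Genes ending near the stem-loop held 1.70% and those with a short 3′ UTR 0.767%. This split leans on *Hist1h1c*, which runs 840 bases past its stem-loop, but the median level per kb over the genes of a class followed it too, at 1.32 CPM per kb past the stem-loop, 1.19 with no stem-loop, 0.632 near it and 0.292 with a short 3′ UTR. *Hist1h4i* runs 330 bases past, *Hist1h2ac* 2010 and *Hist1h1d* 4884.

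Calls were found in every class. In stimulated clone 1, 10 of 13 tested genes ending near the stem-loop were higher than WT, and 17 of 19 of those running past it. So were 4 of 6 with a short 3′ UTR and 3 of 3 with no stem-loop. Of all genes, 9.42% were higher in stimulated clone 1. The classes were not split by whether a gene reached the filter level in WT libraries. A rise in stimulated clone 1 was built into the testing of *Hist1h2ab*, *Hist1h2ad* and *Hist1h3b* (near), *Hist1h3f* (past) and *Hist1h2ai* (short). The medians were 2.28, 2.71, 2.57 and 1.16 on the log2 scale, against -0.02 for all genes, and no test between the classes was run. In uninduced clone 1 the counts were 7 of 13, 12 of 19, 1 of 6 and 2 of 3, where 6.32% of all genes were higher. Beside that share, 1 call among 6 genes says little about the short class. On summed CPM the ratio of clone 1 to WT in stimulated cells was 6.77 near the stem-loop (41.9 ± 0.445 against 6.20 ± 0.618 CPM) and 3.72 past it (1608 ± 62.7 against 433 ± 3.31). It was 2.1 for the genes with no stem-loop (133 ± 4.47 against 63.1 ± 2.73 CPM), of which *Hist1h2bc* is the largest. The counts are per gene, so they do not say where in a transcript the reads fell.

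**Figure D3:**
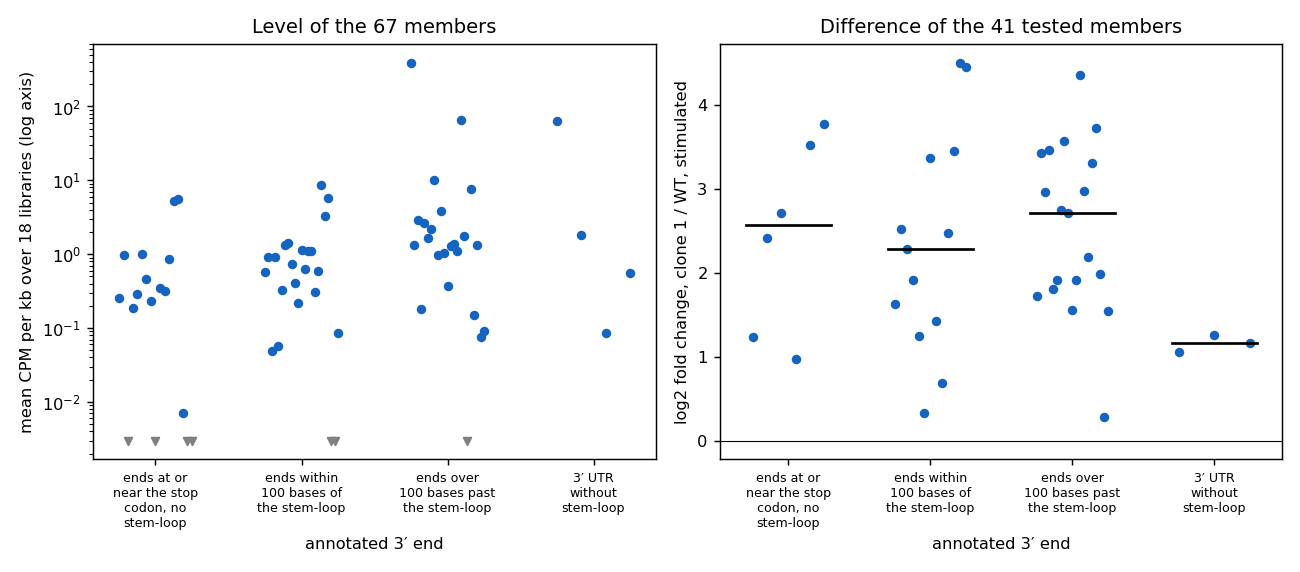
Members by the 3′ end of the annotated transcript. Of the 41 tested members, 5 were tested only through their level in stimulated clone 1. Left, mean CPM per kb over 18 libraries (log axis), with triangles at the bottom for genes with no count; right, log2 fold change of the 41 tested members in stimulated clone 1 over stimulated WT, with lines at the medians; each point is 1 gene, and all 41 lie above 0.

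Along the chromosome, the 54 *Hist1* genes lie between 21715763 and 23934851 on chromosome 13 (GRCm38), a span of 2.22 Mb. The members lay in 2 blocks, 23 genes in 0.328 Mb and 31 genes in 0.404 Mb, 1.49 Mb apart. In stimulated clone 1, 11 of 13 tested genes of the first block and 21 of 24 of the second were higher (medians 2.72 and 2.33). In stimulated clone 2, 5 and 7 were (medians 0.97 and 0.65). Over all genes, 9.42% were higher in stimulated clone 1 and 7.95% in stimulated clone 2. *Hist1h2ai* of the first block and *Hist1h2ab*, *Hist1h2ad*, *Hist1h3b* and *Hist1h3f* of the second were tested only through stimulated clone 1. The blocks were not split by whether a gene reached the filter level in WT libraries. Of non-histone genes inside the span, 7 were tested, among them *Hfe*, for a regulator of iron uptake, and *Abt1*, for a basal transcription activator. In stimulated clone 1, 1 was higher and 1 lower than WT (9.42% and 9.6% of all genes), with a median of -0.25. In uninduced clone 1, 0 were higher and 2 lower (6.32% and 8.73% of all genes), with a median of -0.34. Over 362 other genes of chromosome 13 at 5 CPM or more, the median was 0.00 in stimulated and 0.09 in uninduced clone 1. In clone 2 the median of those 362 was -0.29 and -0.25.

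**Figure D4:**
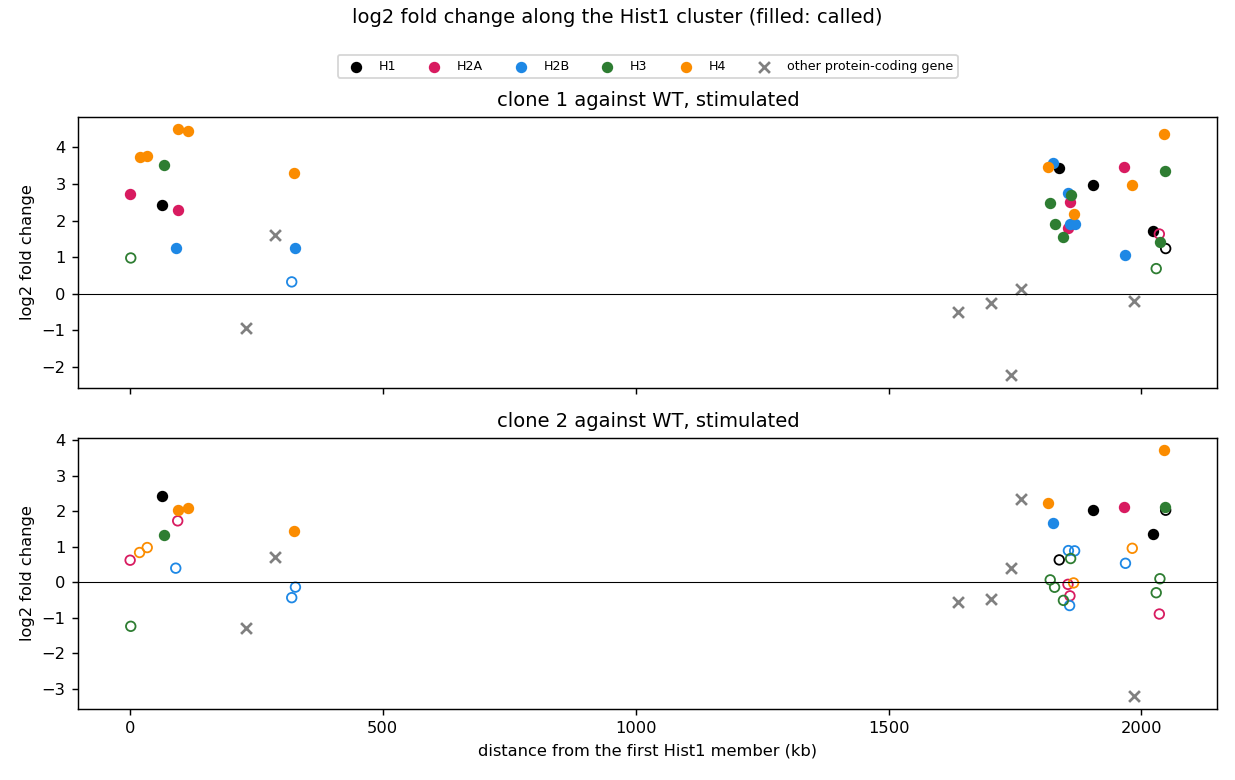
log2 fold change of the tested genes of the *Hist1* cluster in stimulated clone 1 (top) and clone 2 (bottom) over stimulated WT, against the distance in kb from the first member; circles are histone genes, filled where called, and crosses other protein-coding genes of the span. All histone genes lie above 0 in clone 1, in both blocks, while the 7 other genes have a median of -0.25. Of the histone genes, 5 were tested only through stimulated clone 1.

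H2A and H2B genes are often paired head to head over a shared promoter, and 12 such pairs lay 175 to 305 bases apart. Both genes were tested in 4 pairs. All of these genes were higher than WT in stimulated clone 1, but *Hist1h2ad* was tested only through its level in that group, so its pair says nothing on this. The log2 fold changes were 1.80 for *Hist1h2ae* and 2.75 for *Hist1h2bg*, 2.52 for *Hist1h2ad* and 1.92 for *Hist1h2bf*, and 2.28 for *Hist1h2ao* and 1.26 for *Hist1h2bq*. *Hist1h2ao* and *Hist1h2bq* shared 91.5% and 92.4% of their 150-base stretches with other genes, so their counts are uncertain. The fourth pair was the most uneven, with 3.46 for *Hist1h2ac* and 1.06 for *Hist1h2bc*. The call of *Hist1h2bf* was lost without replicate 1 of stimulated WT (1.62).

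Genes outside the clusters that serve histone supply come next. Of the genes that process histone mRNA or transcribe histone genes, 15 of the 16 listed were found and 14 tested, among them *Slbp*, for the stem-loop binding protein, *Npat*, for the activator of histone transcription, and *Lsm11*, of the U7 snRNP. None was called in any of 11 comparisons by edgeR or by DESeq2, while 5 to 11 of the 14 had an unadjusted p below 0.05. Of all genes, edgeR called 4.89% to 9.42% higher and 2.96% to 13.6% lower in these comparisons. At such shares few calls are to be looked for among 14 genes. *Slbp* stood at 31.5 ± 1.52 CPM in stimulated WT, 24.2 ± 1.40 in clone 1 and 24.8 ± 0.836 in clone 2. *Ncbp1* and *Cstf2t* were the most abundant, at 133 ± 7.92 and 83.6 ± 3.02 CPM in stimulated WT against 95.5 ± 3.67 and 80.1 ± 2.60 in clone 1. Of 12 histone chaperones, *Nap1l1* was lower in clone 1, by -1.07 uninduced and -1.22 stimulated (adjusted p = 1.05e-17 and 1.83e-19, edgeR), and no other was called in the comparisons of a clone with WT. *Chaf1b*, of the complex that loads histones onto new DNA, fell on stimulation in clone 1 (-1.32) and clone 2 (-1.49). *Ssrp1* was at 108 to 149 CPM in the group means with no call.

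The replication-independent variants are histone genes outside the clusters with polyadenylated mRNAs that are not confined to S phase, and 11 were tested. *H3f3b*, for histone H3.3, stood out in level, going from 741 ± 26.2 CPM in stimulated WT to 2105 ± 27.8 in clone 1 and 1590.0 ± 39.6 in clone 2, log2 fold changes of 1.51 and 1.10 (adjusted p = 1.85e-23 and 3.93e-20, edgeR). *H3f3a*, for the same protein, was at 267 ± 10.3 CPM in stimulated WT and 232 ± 17.3 in clone 1, not called. *H1f0*, for the linker histone of resting cells, was higher in clone 1 uninduced (1.45) and stimulated (1.08). *H2afy2*, for a macroH2A, was lower in every clone comparison with WT, at 0.939 ± 0.302 CPM in stimulated clone 1 and 9.37 ± 1.02 in clone 2 against 30.4 ± 3.01 in WT.

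Since these histone genes are known for S phase, their sums were set beside those of cell-cycle lists, as a description. In stimulated cells, clone 1 over WT was 1.09 for 25 genes of DNA replication and S phase and 1.91 for 21 genes of G2 and mitosis, against 4.53 for the histone genes without *Hist1h1c*. For clone 2 the ratios were 0.884, 1.24 and 1.83. In uninduced cells they were 1.36, 1.38 and 2.68 for clone 1 and 1.26, 1.62 and 1.36 for clone 2. The order of the groups differed between lists, with S phase genes highest in uninduced clone 1 (801 ± 21.6 CPM) and lowest in stimulated clone 2 (556 ± 7.74). Mitotic genes were highest in stimulated clone 1 (1082 ± 94.0 CPM) and lowest in uninduced WT (406 ± 9.99).

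Of the 25 S phase genes, 3 were higher and 0 lower than WT in uninduced clone 1, where 6.32% and 8.73% of all genes were, and the same numbers in uninduced clone 2, where 5.54% and 9.56% were. In stimulated clone 1, 1 was higher and 1 lower (9.42% and 9.6% of all genes), and in stimulated clone 2, 0 were higher and 3 lower (7.95% and 8.94%). *Tk1*, for thymidine kinase, was higher in clone 1 by 1.40 uninduced and 1.33 stimulated, while *Uhrf1*, for a DNA methylation factor of S phase, fell on stimulation in clone 1 (-1.40) and clone 2 (-1.41). *Pcna*, for the sliding clamp, and *Rrm1*, for a ribonucleotide reductase subunit, were not called, at 90.0 ± 3.49 and 86.2 ± 3.74 CPM in stimulated clone 1 against 66.1 ± 4.13 and 71.6 ± 4.28 in WT. Of 21 mitotic genes, 8 were higher in stimulated clone 1 and 2 in clone 2 (9.42% and 7.95% of all genes), and 2 and 7 in uninduced cells (6.32% and 5.54%). *Top2a* was at 228 ± 23.0 CPM in stimulated clone 1 and 83.7 ± 7.15 in WT, a log2 fold change of 1.44 (adjusted p = 2.55e-11, edgeR), and *Mki67* was higher in all 4 comparisons of a clone with WT (1.10 to 1.77). *Cdkn1a*, for the p21 inhibitor of cyclin-dependent kinases, was higher in all 4 as well, by 2.02 and 2.20 in stimulated clone 1 and clone 2. Of the 6 tested genes for such inhibitors, 1 was higher and 2 were lower in each of these 4 comparisons. *Cdkn2a* and *Cdkn2b*, of the same list, had no count in any clone library. Whether the share of cycling cells moved with the histone counts was not tested.

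**Figure D5:**
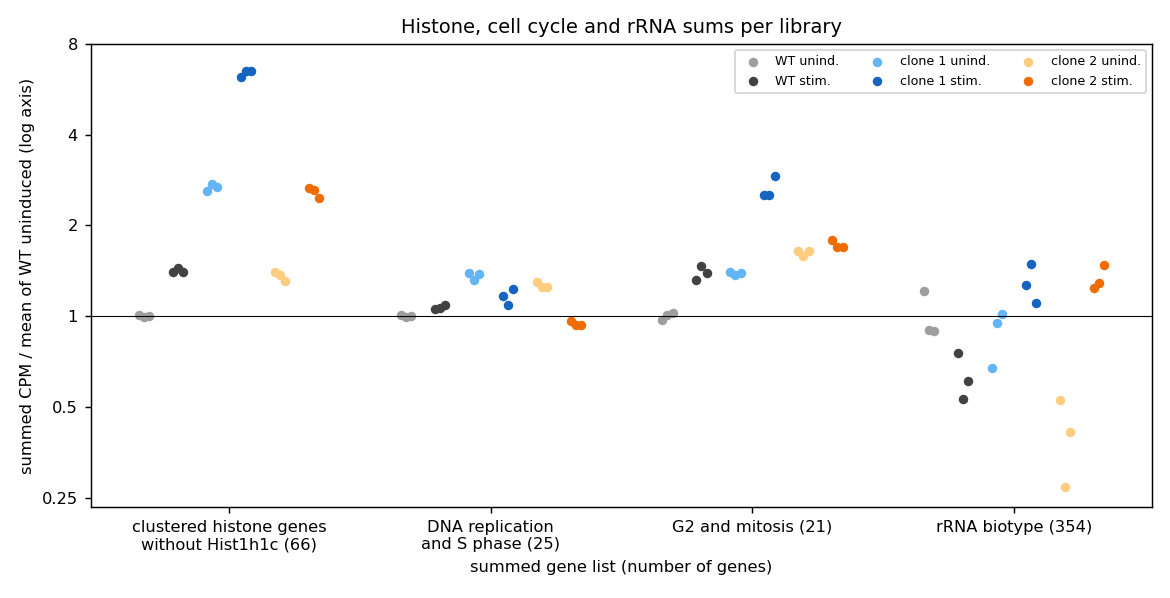
Summed CPM in each library relative to the mean of uninduced WT (log axis) for the clustered histone genes without *Hist1h1c*, the S phase list, the mitosis list and genes annotated as rRNA; points are libraries. Histone sums in stimulated clone 1 lie between 6.23 and 6.50, where the S phase list lies between 1.09 and 1.23.

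RNAs without a poly(A) tail give another value to set beside these counts. Genes annotated as rRNA, nearly all from 1 gene, summed to 1117, 782 and 901 CPM in stimulated WT, 1870, 2199 and 1626 in clone 1 and 1823, 1897 and 2179 in clone 2. In uninduced cells they summed to 1781, 1330 and 1316 CPM in WT, 990.0, 1401 and 1501 in clone 1 and 774, 401 and 608 in clone 2. The ratio to WT was therefore 2.03 in stimulated clone 1 and 2.11 in stimulated clone 2, but 0.879 and 0.403 in the uninduced clones, where histone genes without *Hist1h1c* stood at 2.68 and 1.36. *Rn7sk*, a short nuclear RNA without a tail, was at 1.19 to 6.41 CPM in the group means. The sum of 8 named tailless RNAs, *Rn7sk* among them, stood after stimulation at 0.863-fold in WT, 2.41-fold in clone 1 and 4.09-fold in clone 2. Its ratio to WT was 0.589 and 0.278 in uninduced clone 1 and clone 2 and 1.64 and 1.32 in the stimulated clones. The 1 of the 8 that was tested was called higher on stimulation in each clone, not in WT, and lower than WT in uninduced clone 2. snRNA genes summed to 1.79 to 4.0 CPM and snoRNA genes to 9.41 to 14.5 CPM. The classes did not move alike. For snRNA genes the ratio to WT was 2.03 and 1.49 in uninduced clone 1 and clone 2, and 1.57 and 1.37 in the stimulated clones. For snoRNA genes it was 1.29 and 0.920, then 1.34 and 1.06. For scaRNA genes it was 0.524 and 0.506, then 2.21 and 2.13. Their part in the histone result was not tested.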

How the data were processed

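Raw counts per gene were deposited by the authors as 1 table of 54532 genes in 18 libraries (15576685 to 42005596 counts each). Poly(A)-enriched RNA was sequenced in paired 150-base reads and aligned with HISAT2 to mm10 (GRCm38). For the counter, the annotation release, multi-mapping reads and strand, settings were not given in the sources used here. Poly(A) selection depletes tailless histone mRNAs, and near-identical genes can lose or share reads.

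Groups followed the labels. Counts were fitted with edgeR 4.0.16 (R 4.3.3, limma 3.58.1), with filterByExpr (minimum count 10), TMM scaling and robust quasi-likelihood tests, in 1 model of all 18 libraries, which left 14317 genes tested. A call needs a Benjamini-Hochberg adjusted p below 0.05 over these genes and an absolute log2 fold change above 1. CPM are counts scaled to 1e6 of the effective (TMM) library size, and CPM per kb divides by exon length. Sums were computed with Python 3.11.15 and pandas 2.3.3 and plotted with matplotlib 3.10.9. A floor is 3 counts over a group and covers counting error only. The fit was tested on simulated data. Libraries of the same group exceeded sampling noise in their differences (chi-square per degree of freedom 3.13 to 14.6 over 18 pairs), so none was a duplicate. Transcripts came from the GRCm38 annotation, and promoters from RefSeq (GRCm38.p6).

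The members and lists were chosen with earlier results of these data known. Named were the 3 genes of each histone with the highest CPM per kb, the 3 largest calls in each direction of a comparison, all members outside *Hist1* and those with no count, and, of other lists, the genes called most often and the 2 most abundant. Genes of divergent pairs, *Hist1h2br*, *Hist1h4b* and the 5 genes tested through stimulated clone 1 were named after their values were seen. Alternatives were DESeq2 1.42.0, its size factors in edgeR, no filter, 1 CPM in 3 libraries, a replicate block, each library left out and, chosen after seeing the data, members sharing under 30% of their 150-base stretches.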

Additional observations from a re-analysis of the deposited data

Results flagged for a closer look

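The response to stimulation differed between a clone and WT, by the interaction test across all genes, at 8 members in clone 1 and 6 in clone 2. In clone 1 the log2 response was larger than in WT by 3.01 for *Hist1h1b* and 1.42 for *Hist1h1d*, both linker histone genes. It was larger by 1.98 for *Hist1h2ac* (H2A), 1.26 for *Hist1h2bg* and 2.67 for *Hist1h2bh* (H2B), 3.16 for *Hist1h3i* (H3), and 2.19 for *Hist1h4k* and 2.5 for *Hist1h4n* (H4). In clone 2 it was larger by 2.65 for *Hist1h1b*, 1.60 for *Hist1h2ac*, 2.22 for *Hist1h3i*, 2.04 for *Hist1h4k* and 2.83 for *Hist1h4n*. *Hist1h3b* went the other way in clone 2, at -3.43, on 0, 0 and 2 counts in uninduced WT. Several of these calls were lost with 1 library left out. In clone 1, *Hist1h1d* was not called without replicate 1 of uninduced WT (1.00), nor was *Hist1h1b* without that library (1.75), replicate 1 of stimulated WT (2.54) or replicate 3 of stimulated clone 1 (2.56). *Hist1h2bh* was not called without replicate 2 of uninduced WT (1.45), replicate 1 (2.64) or 3 (2.52) of stimulated WT, or replicate 1 (2.33) or 2 (2.38) of uninduced clone 1, and was at 3.66 without replicate 3 of uninduced clone 1. In clone 2, *Hist1h1b* was not called without replicate 1 of uninduced WT (1.39), replicate 1 of stimulated WT (2.19), replicate 1 (2.76) or 2 (2.48) of uninduced clone 2, or replicate 1 (2.67) or 3 (2.49) of stimulated clone 2. *Hist1h3b* there was at -6.10 without replicate 3 of uninduced WT. It was not called without replicate 2 of uninduced WT (-2.98), replicate 1 (-3.20) or 3 (-3.16) of stimulated WT, replicate 1 of uninduced clone 2 (-2.80) or replicate 3 of stimulated clone 2 (-3.21). *Hist1h3i* and *Hist1h4n* stayed called without replicate 1 of uninduced WT, at 2.5 and 1.80 in clone 1 and 1.55 and 2.12 in clone 2.

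*Hist1h2al*, annotated as a processed pseudogene and so outside the protein-coding members, was higher than WT in stimulated clone 1 by 1.34 and in stimulated clone 2 by 1.11 on the log2 scale.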

How the results depend on the processing

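No call of a member named in the report changed direction under any alternative. Of 181 calls of members over the 11 comparisons, 19 were lost under at least 1 of DESeq2 (1), no filter (16), the filter of 1 CPM in 3 libraries (0 of 161), DESeq2 size factors (0) or the replicate block (5), and 57 when some library was left out. With members that share under 30% of their 150-base stretches, an alternative with fewer genes, the counts were 14 for clone 1 and 4 for clone 2 against WT in uninduced cells, 8 and 17 for clone 1 against clone 2 in uninduced and stimulated cells, and 4 and 2 for the differences in response. The same replicate number did not pair libraries (correlation of deviations -0.041 to 0.050 over 45 pairs, against -0.087 to 0.058 over 90 pairs of different number), and with the replicate block the counts were 22 and 33 for clone 1 against WT in uninduced and stimulated cells and 9 and 12 for clone 2. With 1 library left out, the counts ran from 18 to 24 and 30 to 33 for clone 1 against WT in uninduced and stimulated cells, 6 to 15 and 13 to 15 for clone 2, 7 to 12, 19 to 23 and 13 to 16 for the responses of WT, clone 1 and clone 2, 6 to 11 and 4 to 12 for the differences in response, and 11 to 16 and 19 to 25 for clone 1 against clone 2. The extremes of 15 and 12 came without replicate 3 and replicate 1 of uninduced WT. The cause was not tested. Depth limits the 26 members that were not tested and the H4 genes near 0 in WT.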

Other observations

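Genes that are not protein-coding members but carry histone names or cover members also had counts. *Hist1h2al*, a processed pseudogene away from the *Hist1* span (chr13:51202727-51203065, GRCm38), was at 13.1 ± 4.04 and 14.6 ± 1.09 CPM in uninduced and stimulated WT, 26.4 ± 1.84 and 37.0 ± 2.67 in clone 1, and 21.7 ± 1.84 and 31.5 ± 1.93 in clone 2 (SD, n = 3). *Gm20632*, annotated antisense over the exons of *Hist2h2aa2*, was at 6.56 and 6.58 CPM in WT, 26.4 and 38.0 in clone 1, and 13 and 19.6 in clone 2. It was called higher in uninduced clone 1 (2.01) and in stimulated clone 1 (2.53) and clone 2 (1.57). Without strand, its reads and those of *Hist2h2aa2*, which is listed at 0, cannot be told apart. All 5 members of *Hist2* with no count lay wholly under another annotated gene.

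Non-histone genes inside the *Hist1* span behaved differently from one another. *Hfe* was lower than WT in clone 2, by -5.94 uninduced and -3.22 stimulated, and rose on stimulation there by 3.30. *Btn1a1* and *Btn2a2*, of the butyrophilin family, were lower in uninduced clone 1 (-3.49 and -1.67) and clone 2 (-2.31 and -1.58), while *Btn2a2* was higher in stimulated clone 2 (2.33). *Prss16*, for a serine protease of the thymus, was higher in stimulated clone 1 (1.61).

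*Cdkn2a* and *Cdkn2b*, neighbouring genes for inhibitors of the cell cycle, were at 0 counts in all 12 clone libraries, uninduced and stimulated, and at 30.2 to 39.2 CPM in the WT group means.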
